A study of Mus musculus with 6 samples.

Results

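The 61 genes described here encode splicing factors and regulators of alternative splicing. They were chosen by name from the 23235 entries of the deposited RNA-seq table, and comprise 11 Srsf genes, 2 Tra2 genes, 21 heterogeneous nuclear ribonucleoprotein (hnRNP) genes with Raly, and 27 genes of the Ptbp, Mbnl, Rbfox, Celf, Elavl, Nova, Esrp and STAR (Khdrbs and Qk) families. RNA was sequenced from 3 samples of the mouse line E14Tg2a kept as pluripotent embryonic stem cells (ESCs) with Leukemia Inhibitory Factor (LIF), and from 3 samples of the same line grown for 48 h without LIF in 1 μM Retinoic Acid (RA), which the study calls neuronal cells (NCs). Both conditions are of 1 cell line, and withdrawal of LIF and addition of RA came together, so their effects cannot be told apart. The table holds 1 FPKM value (a fragment count divided by transcript length and by the mapped total) per gene and condition. Without values per sample no SD or test could be computed here, and the authors' own comparison in the table was not used. "Rose" and "fell" below mean that the NC value was at least 2-fold above or below the ESC value in a gene whose mean FPKM over both conditions was at least 1.

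Splicing joins exons and removes introns from the precursor of an mRNA, and the choice of exons differs between cell types. SR proteins, which carry arginine and serine rich tails, mostly promote the inclusion of an exon where they bind in it. The hnRNPs coat the precursor and often act against inclusion. Regulators with a narrower expression, such as the neuronal Nova and the epithelial Esrp proteins, then set tissue programs on top of these abundant factors. In the differentiation of stem cells and neurons, Mbnl, Rbfox and Ptbp proteins are known for switching groups of exons. The values here are of whole genes, and all transcripts of a gene are summed in them, so they carry no measurement of exon inclusion.

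The cell labels were compared with marker genes. All 6 pluripotency markers fell and all 6 RA response markers rose, and 4 of the 5 neural progenitor markers with a mean FPKM of at least 1 rose, Sox1 from 1.77 to 21.8 FPKM and Pax6 from 3.64 to 65.2 FPKM. Markers of differentiated neurons did not follow the NC label. Of 10 such genes, 7 had a mean FPKM of at least 1, and 5 of these fell and none rose (4 of 5 without the members Elavl3, Elavl4 and Rbfox3, which are on this list), with Tubb3 at 33.4 FPKM with LIF and 7.54 with RA, Stmn2 at 142 and 11.8 FPKM, and Neurod1 at 10.1 and 0.259 FPKM. Of 7 endoderm and mesoderm markers, the endoderm genes Gata6, Foxa2 and Sox17 rose, the highest being Gata6 with 5.48 FPKM in NCs, and Gata4 was within the limit. The mesoderm genes T, Eomes and Mesp1 had a mean under 1, and none had a higher FPKM in NCs. Of the 4 fibroblast markers with a mean of at least 1, 2 rose and 1 fell. The part of other cell types in the values below was not tested, and in bulk RNA fewer cells of a type and less RNA per cell cannot be told apart. The FPKM values summed to 770592 in ESCs and 628679 in NCs. Scaling both conditions to 1 sum would add 0.29 to every log2 ratio, against a median log2 ratio of -0.04 over the 12784 genes with a mean FPKM of at least 1. With this scaling the sign turned in 17 of the members, so values under 0.3 on the log2 scale are given without a direction.

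Of the 61 members, 55 had a mean FPKM of at least 1, and none was listed at 0. Among these, Khdrbs3, Mbnl1 and Nova1 rose and Elavl3, Esrp1, Celf4, Celf5 and Elavl2 fell, which is 8 genes or 14.5%. All 8 belong to the families with tissue or switch functions, where 21 genes passed the limit on the mean, so 38.1% were called. Of the 34 SR, Tra2 and hnRNP genes, none rose or fell. These sets differ in level, as 33 of the 34 but only 6 of the 21 had a mean of at least 20 FPKM. Of these 6, 1 was past 2-fold (16.7%), where 11.6% of all genes of that level were. Over all genes with a mean of at least 1 FPKM, 11.1% rose and 9.93% fell, 21.0% in all. The share of genes past 2-fold depends on the level. Among all genes with a mean FPKM of 1 to 5, 37.7% were past 2-fold, and among those of at least 100 FPKM, 12.1%. Among all genes of at least 20 FPKM, 4.27% rose and 7.35% fell, 11.6% in all, and of the 39 members of that level 1 gene, Khdrbs3, rose and none fell (2.56%). Of the 20 members with a mean FPKM of at least 100, 0 were past 2-fold, and of the 9 members between 1 and 5 FPKM, 4 were. Between 5 and 20 FPKM, 3 of 7 members were, where 17.7% of all genes were. The median log2 ratio of the members was 0.01. With both conditions scaled to 1 sum, 7 members rose and 4 fell, so that the rises made up 63.6% of the calls in place of 37.5%. This shift toward rises was not confined to the members. Over all genes with a mean FPKM of at least 1, 1419 rose and 1270 fell on the deposited scale. With equal sums 2093 of these genes rose and 865 fell, 23.1% in all. Among the members, the added rises were those of Celf2, Ptbp2, Srsf12 and Hnrnpr, and Elavl2 was then within 2-fold. Positions given below for the 8 genes are those of GENCODE M21 on GRCm38.

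The promoter sequences of the members were compared as a feature that the choice by name did not use. RefSeq promoters (250 bases before to 50 bases after a start, GRCm38.p6) were at hand for 52 of the members, with 89 starts. Over all 89, members with a mean FPKM under 1 included, the median GC content was 63.0%. It was 61.0% for genes with a mean FPKM of at least 1. The ratio of observed to predicted CG dinucleotides was 0.80 against 0.76. For the members of at least 20 FPKM the ratio was 0.96, against 0.82 for all genes of that level. Starts rich in CG are typical of genes that are active in many tissues. Of the members that rose or fell and have an entry, Elavl3 had the highest and Mbnl1 the lowest ratio at the start nearest to that of the GENCODE gene, and both are shown with all their listed starts. Each CG is in capitals.
Elavl3, chr9:22051974-22052273, minus strand: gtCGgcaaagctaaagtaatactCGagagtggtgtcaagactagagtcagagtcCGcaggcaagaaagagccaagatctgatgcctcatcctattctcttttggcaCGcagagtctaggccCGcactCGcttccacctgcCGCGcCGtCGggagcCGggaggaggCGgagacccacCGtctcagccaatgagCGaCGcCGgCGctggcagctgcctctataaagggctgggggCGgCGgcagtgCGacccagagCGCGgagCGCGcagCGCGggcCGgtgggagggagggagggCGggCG
Mbnl1 first start, chr3:60472580-60472879, plus strand: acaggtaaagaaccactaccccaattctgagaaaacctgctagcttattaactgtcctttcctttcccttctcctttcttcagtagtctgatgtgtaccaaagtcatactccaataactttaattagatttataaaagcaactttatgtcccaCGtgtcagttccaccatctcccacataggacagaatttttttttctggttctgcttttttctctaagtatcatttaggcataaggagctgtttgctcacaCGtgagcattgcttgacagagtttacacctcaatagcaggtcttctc
Mbnl1 second start, chr3:60500929-60501228, plus strand: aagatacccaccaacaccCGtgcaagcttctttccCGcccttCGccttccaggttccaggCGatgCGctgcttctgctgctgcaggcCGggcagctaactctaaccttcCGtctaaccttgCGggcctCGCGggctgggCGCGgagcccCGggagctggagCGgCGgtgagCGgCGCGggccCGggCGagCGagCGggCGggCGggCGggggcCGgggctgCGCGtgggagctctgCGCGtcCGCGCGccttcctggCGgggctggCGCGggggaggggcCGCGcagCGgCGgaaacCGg
The Elavl3 promoter has 29 CG dinucleotides in 300 bases. The first start of Mbnl1 has 2 and the second has 41, so that 1 gene holds both kinds of promoter, and the table does not divide its FPKM between them. The nuclear receptor half-site AGGTCA was searched on both strands and found in 7 of the 89 promoters (7.87%). The share was 16.3% for all 32851 promoters and 12.4% for those of genes with a mean FPKM of at least 1. At a mean FPKM of at least 20, 6.38% of member promoters and 13.0% of all promoters had the half-site. The 7 promoters belong to Celf2, Elavl4, Hnrnph1, Ptbp2, Srsf3 and Srsf9. These shares count starts and not genes, and the Elavl4 promoters with the half-site overlap, so the same site may count more than once. Of the members that rose or fell, Esrp1, Khdrbs3 and Celf4 had no entry. RA receptors are known to bind direct repeats of the half-site with a gap of 1, 2 or 5 bases (DR1, DR2 and DR5). Exact repeats of this kind, on both strands, were found in 0 of the 89, and in 13, 3 and 3 of all promoters. They are so rare that the 0 cannot set the members apart, and repeats of varied half-sites were not searched.

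The SR and Tra2 genes had nearly the same deposited FPKM in both conditions, while with equal sums all 13 had a positive log2 ratio. Srsf2, which binds exonic enhancers and is itself controlled by an exon that leads to decay of its mRNA, had the highest value, 260 FPKM in ESCs against 282 in NCs. Srsf3, the smallest SR protein, had 248 FPKM with LIF and 253 with RA. Srsf5 had 225 FPKM in ESCs against 214 in NCs. The order of these 3 genes was the same in both conditions. Srsf7 followed with 146 FPKM with LIF and 144 with RA. Srsf1, the founding member of the family, had 95.4 FPKM in ESCs against 116 in NCs, a log2 ratio of 0.29. The largest ratio was that of Srsf12, 0.81, but this gene had 0.773 FPKM with LIF and 1.35 with RA, the lowest level of the family. Of the 11 Srsf genes, 10 had an absolute log2 ratio under 0.3, and the median of the absolute ratios was 0.07. It was 0.43 over all genes with a mean FPKM of at least 1 and 0.34 over all genes with a mean FPKM of at least 20. With equal sums, 5 of the 11 stayed under 0.3 and the median of the absolute ratios was 0.33, against 0.47 and 0.33 over all genes of these 2 levels. Tra2b, which binds purine-rich enhancers, had 137 FPKM in ESCs against 151 in NCs. Its paralog Tra2a had 97.3 FPKM with LIF and 85.8 with RA. The summed FPKM of the Srsf genes was 1354 in ESCs and 1402 in NCs, a log2 ratio of 0.05, or 0.34 with equal sums.

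The hnRNP genes had the highest levels of all members. Hnrnpa3 led with 1418 FPKM in ESCs against 861 in NCs, which were ranks 108 and 116 among all entries of the table. Its NC value was 1.65-fold lower, the largest difference of the family in size on the deposited scale, within the 2-fold limit. With equal sums its log2 ratio was -0.43, and that of Hnrnpr, 1.01, was the largest. It made up 24.1% of the summed hnRNP value in ESCs and 16.1% in NCs. Hnrnpa1, which competes with SR proteins at splice sites, had 676 FPKM with LIF and 626 with RA. Hnrnpa2b1 had 591 FPKM in ESCs against 622 in NCs. On the deposited scale both were nearer to equal values than Hnrnpa3, with log2 ratios of -0.11 and 0.07, and with equal sums they had ratios of 0.18 and 0.37. Hnrnpk, a protein that binds cytosine-rich RNA, had 477 FPKM with LIF and 468 with RA. Hnrnpf, which binds runs of guanine, had 534 FPKM in ESCs against 399 in NCs. Its paralog Hnrnph1 had 169 FPKM with LIF and 227 with RA, so the 2 genes had ratios of opposite sign, -0.42 and 0.42 on the log2 scale. With equal sums the ratios were -0.13 and 0.71, so that of Hnrnpf was then under 0.3 in size.

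Hnrnpr, whose protein is known in motor axons, had the largest positive ratio among the hnRNP genes, with 40.4 FPKM in ESCs against 66.3 in NCs, 1.64-fold higher. Hnrnpu, a nuclear scaffold protein, had 200 FPKM with LIF and 254 with RA, and Hnrnpa0, Hnrnpm and Hnrnph3 had ratios between 0.32 and 0.39. Hnrnpc had 263 FPKM in ESCs against 212 in NCs, a log2 ratio of -0.31, and its relative Raly had 241 and 211 FPKM. Of all 34 SR, Tra2 and hnRNP genes, 24 had an absolute log2 ratio under 0.3, and 14 with equal sums. At least 1.5-fold in size were the changes of Hnrnpa3, Hnrnpr and Srsf12. Restricted to the 33 genes with a mean FPKM of at least 20, these were 2, or 6.06%, where 26.7% of all genes of that level were past 1.5-fold. With equal sums they were 6, or 18.2%, against 27.5%. The summed value of the 34 genes was 7483 FPKM with LIF and 6971 with RA. As a share of all FPKM this was 0.971% in ESCs and 1.11% in NCs, so the direction depends on the scale. Reads of some of these genes cannot be placed with certainty. Of the 50-base words in the annotated transcripts, 61.9% of those of Hnrnpf, 28.2% of those of Hnrnpa1 and 27.1% of those of Hnrnpa3 also occur in another gene, for Hnrnpa3 in 46 genes. Antisense genes overlap 43.0% of the exonic bases of Srsf4, 29.1% of those of Hnrnpab, 26.5% of those of Hnrnpf and 25.3% of those of Srsf2.

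**Figure D1:**
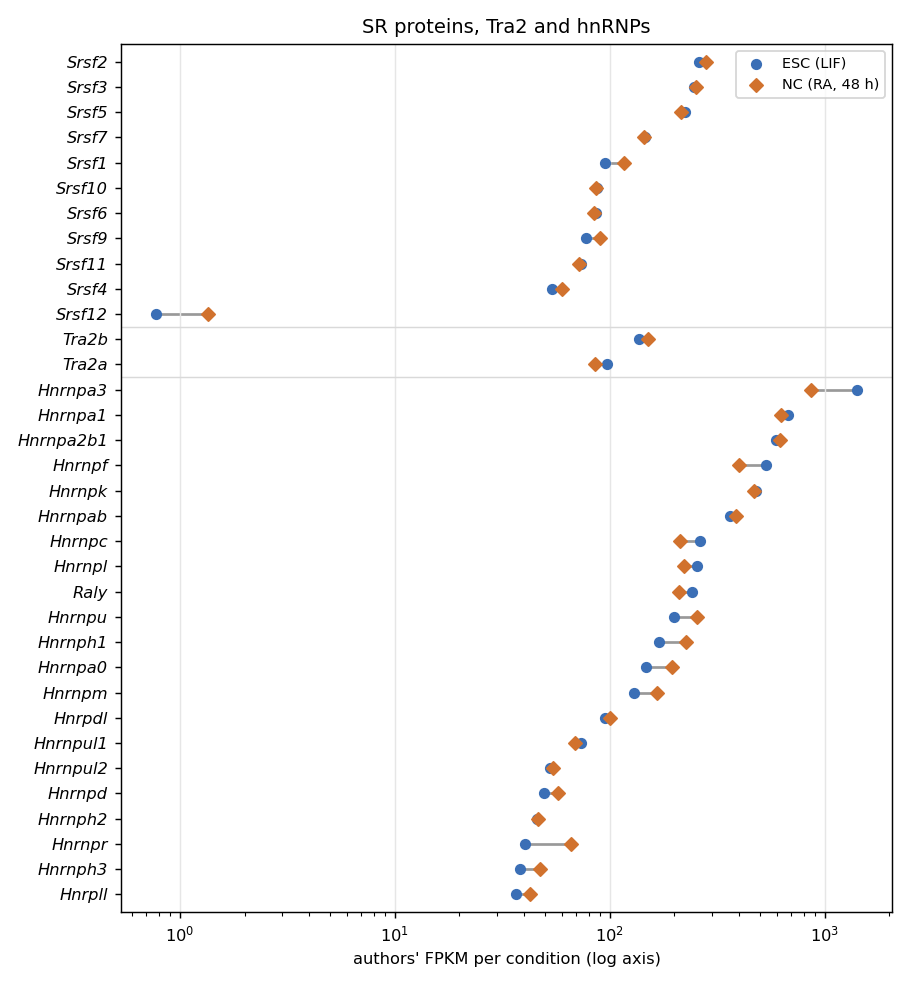
Authors' FPKM of the 34 SR, Tra2 and hnRNP genes (horizontal log axis), with circles for ESCs and diamonds for NCs joined by a line for each gene. Most pairs of points nearly coincide, and the longest lines are those of Hnrnpa3 (1418 and 861 FPKM), Hnrnpr (40.4 and 66.3 FPKM) and Srsf12 (0.773 and 1.35 FPKM).

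The polypyrimidine tract binding proteins repress exons, and the exchange of Ptbp1 for Ptbp2 is known from the development of neurons. Ptbp1 had 231 FPKM in ESCs against 217 in NCs. Ptbp2, the neuronal paralog, had 13.6 FPKM with LIF and 24.7 with RA, 1.81-fold higher and within the 2-fold limit. With a scaling to equal sums its log2 ratio was 1.15. Ptbp3 had 18.8 FPKM in ESCs against 20.01 in NCs. Ptbp2 was below Ptbp3 in ESCs and above it in NCs, and Ptbp1 made up 87.7% of the summed value in ESCs and 82.9% in NCs. In the annotation, 20.7% of the exonic bases of Ptbp1 overlap an antisense gene, and without strand the reads of both cannot be told apart.

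Mbnl1 (chromosome 3, 60472830 to 60629750), a muscleblind protein that promotes the splicing pattern of differentiated cells, rose from 0.844 to 3.03 FPKM, 3.58-fold. Mbnl2 was nonetheless the main muscleblind mRNA in both conditions, with 16.1 FPKM with LIF and 13.8 with RA. Mbnl3 had a mean under 1, with 0.652 FPKM in ESCs against 1.03 in NCs. The share of Mbnl1 in the family was 4.79% in ESCs and 16.9% in NCs, while the summed value was 17.6 FPKM with LIF and 17.9 with RA. The shares do not depend on the scaling, but the log2 ratio of the sums does, with 0.02 on the deposited scale and 0.31 with equal sums.

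The Rbfox proteins bind the word UGCAUG beside exons. Rbfox2 had 19.9 FPKM in ESCs against 19.1 in NCs and held 94.4% of the family in ESCs and 95.7% in NCs. Rbfox3, which is known as the neuronal nuclear antigen NeuN, had 1.11 FPKM with LIF and 0.832 with RA. Rbfox1 had 0.0612 FPKM in ESCs against 0.0322 in NCs. Both genes had a mean under 1, and neither of these neuronal forms was at a higher FPKM in NCs.

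In the Celf family, whose members bind GU-rich RNA and in several tissues act against Mbnl proteins, Celf1 was the main mRNA, with 68.2 FPKM with LIF and 61.0 with RA. Celf5 (chromosome 10, 81459227 to 81482709) fell 2.62-fold, from 8.28 to 3.16 FPKM. Celf4 (chromosome 18, 25477632 to 25754157), like Celf5 expressed mostly in the nervous system, fell 2.94-fold, from 4.54 to 1.54 FPKM. Celf2 went the other way, with 2.11 FPKM in ESCs against 4.02 in NCs, 1.91-fold higher, and its log2 ratio was 1.22 when the sums were scaled. Celf3 had 0.393 FPKM with LIF and 0.169 with RA, and Celf6 had 0.216 and 0.193 FPKM, both with a mean under 1. Celf3 to Celf6 were thus lower in NCs or near the bottom of the scale in both conditions, while the share of Celf1 was 81.4% in ESCs and 87.1% in NCs.

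The Elavl genes encode Hu proteins, which bind AU-rich RNA. Elavl1 (HuR), found in most cells, had 25.6 FPKM in ESCs against 22.6 in NCs. Its neuronal paralogs were all at lower FPKM in NCs. Elavl3 (HuC, chromosome 9, 22015005 to 22052023) had the largest fall of all members, from 5.03 to 0.632 FPKM, 7.95-fold. Elavl2 (HuB, chromosome 4, 91250763 to 91400785) fell 2.11-fold, from 15.2 to 7.18 FPKM, a call that was lost with a pseudocount of 1 or with equal sums. Elavl4 (HuD) had 1.26 FPKM with LIF and 0.849 with RA, within the limit. The neuronal forms together made up 45.6% of the summed Elavl value in ESCs and 27.7% in NCs. Beside these genes, the 7 neuron markers that are no members summed to 193 FPKM in ESCs against 23.5 in NCs, with Dcx at 0.0140 and 0.334 FPKM as the gene with a higher value in NCs. The part of neuron-like cells in the ESC samples in these values was not tested.

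Nova1 and Nova2, which bind YCAY words in neuronal transcripts, were at low levels and changed places. Nova1 (chromosome 12, 46694517 to 46818929) rose 3.61-fold, from 0.669 to 2.42 FPKM. Nova2 had 1.72 FPKM with LIF and 1.02 with RA, 1.69-fold lower. Nova1 thus held 28.0% of the summed value in ESCs and 70.4% in NCs. In the annotation, 31.7% of the exonic bases of Nova2 overlap an antisense gene.

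The Esrp proteins drive the splicing pattern of epithelial cells, for which the choice between the IIIb and IIIc exons of FGF receptor genes is the known example. Esrp1 (chromosome 4, 11331933 to 11386783) fell 5.16-fold, from 22.8 to 4.42 FPKM. Esrp2 had 3.30 FPKM in ESCs against 2.86 in NCs. The summed value of the pair was 26.1 FPKM in ESCs and 7.28 in NCs, 3.59-fold lower, and Esrp was the family whose sum was past 2-fold, on both scales. Esrp1 held 87.4% of it in ESCs and 60.7% in NCs.

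The STAR proteins bind UAA-type words. Khdrbs3 (SLM2, chromosome 15, 68928420 to 69101211), known for the control of neurexin exons in the brain, rose 2.49-fold, from 18.8 to 46.9 FPKM. It was the member with the highest FPKM among those that rose or fell. Khdrbs1 (Sam68) had 68.5 FPKM with LIF and 106 with RA, 1.55-fold higher. Khdrbs2 (SLM1) had 0.272 FPKM in ESCs against 0.382 in NCs, with a mean under 1. Qk, whose protein Quaking is known from glia, had 51.0 FPKM with LIF and 56.7 with RA. The family summed to 139 FPKM in ESCs against 210 in NCs, and each of its members had the higher value in NCs on both scales.

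**Figure D2:**
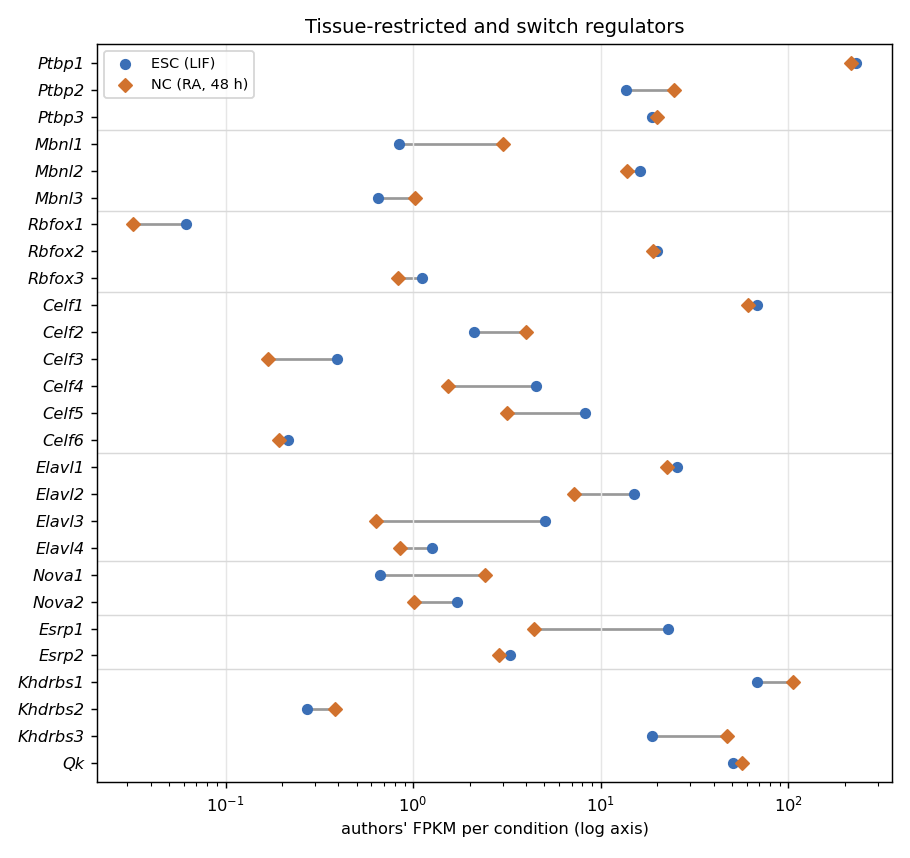
Authors' FPKM of the 27 members of the Ptbp, Mbnl, Rbfox, Celf, Elavl, Nova, Esrp and STAR families (horizontal log axis), with circles for ESCs and diamonds for NCs. The widest gaps are those of Elavl3 (5.03 and 0.632 FPKM), Esrp1 (22.8 and 4.42 FPKM), Nova1 (0.669 and 2.42 FPKM) and Mbnl1 (0.844 and 3.03 FPKM).

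**Figure D3:**
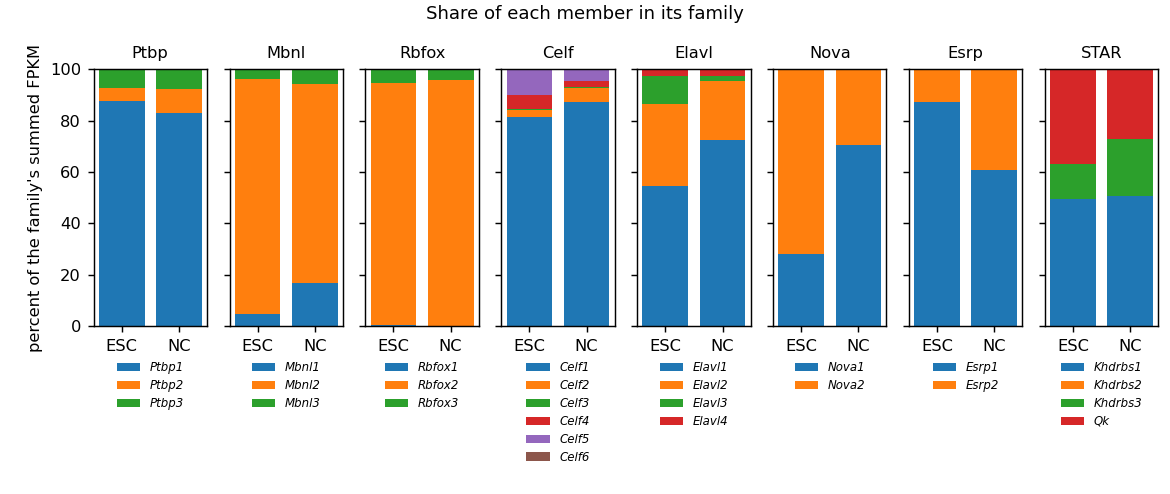
Percent of the summed FPKM of each family (vertical axis) held by each member, in ESCs and in NCs as stacked bars. The leading member is the same in both conditions in 7 of the 8 families, and in the Nova family the share of Nova1 is 28.0% in ESCs and 70.4% in NCs.

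As a group, 13 members are known mainly from neurons, and 8 of them had a mean FPKM of at least 1. Of these, Nova1 rose and 4 fell, namely Elavl2, Elavl3, Celf4 and Celf5. By level, 3 of the 5 with a mean FPKM of 1 to 5 and 2 of the 3 between 5 and 20 were past 2-fold, where 37.7% and 17.7% of all genes were. With equal sums Nova1 and Ptbp2 rose and 3 fell. The values in NCs ran from 0.632 FPKM for Elavl3 to 24.7 FPKM for Ptbp2. Of the 7 broadly expressed members set beside them (Ptbp1, Rbfox2, Elavl1, Celf1, Khdrbs1, Qk and Mbnl1), Mbnl1 rose, and the median log2 ratio was -0.07, against -0.92 for the 8 neuronal members. With equal sums these medians were 0.23 and -0.62. Apart from Mbnl1 and Rbfox2, the broad members had a mean FPKM of at least 20, a level at which 11.6% of all genes were past 2-fold. Khdrbs3 is on neither list, and with it among the neuronal members, a choice made after the values were seen, 2 of 9 rose and 4 fell, with a median of -0.76.

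The rest of the splicing machinery was described through lists of its genes. Of 42 genes of the core spliceosome, 41 were in the table and all had a mean FPKM of at least 1, and none rose or fell. Their median log2 ratio was -0.18, or 0.12 with equal sums. On the deposited scale 31 of 41 had the lower FPKM in NCs, and with equal sums 31 of 41 had the higher. Of the 39 with a mean FPKM of at least 20, 31 were lower, and the median was -0.19. Over all genes of that level the median was -0.16, with 2860 of 4501 lower. With equal sums the medians at that level were 0.10 for the list and 0.14 for all genes, and 29 of the 39 and 2805 of the 4501 were higher. The largest difference on the deposited scale was that of Snrpd2, an Sm ring protein, with 734 FPKM with LIF and 463 with RA, a log2 ratio of -0.66. With equal sums it was -0.37, and the largest was that of Sf3b4, a subunit of the SF3b complex, 0.57. Snrpg had the highest level, 858 FPKM in ESCs against 828 in NCs. The kinases that phosphorylate SR proteins were 9, of which 8 had a mean of at least 1 and none rose or fell. Clk1 had 68.2 FPKM with LIF and 42.8 with RA, and Srpk1 had 55.4 and 42.0 FPKM. The median of the kinases was -0.29, the size of the shift between the scalings, and with equal sums it was 0.00. Over all genes with a mean FPKM of at least 1 these medians were -0.04 and 0.26. For the 5 kinases with a mean FPKM of at least 20 the median was -0.19, against -0.16 over all genes of that level.

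Of 38 other splicing regulators with a mean of at least 1, Msi1 rose and Rbm47 and Rbpms2 fell. Msi1 (Musashi 1), a marker of neural stem cells, rose 2.55-fold, from 22.8 to 58.0 FPKM. Rbpms2 fell 3.20-fold, from 154 to 47.9 FPKM. Rbm47, which like Esrp1 acts in epithelial cells, fell 4.44-fold, from 4.30 to 0.968 FPKM. Ybx1 had the highest level of this list, 669 FPKM in ESCs against 512 in NCs. Srrm4, the neuronal activator of microexons, had 0.201 FPKM with LIF and 0.104 with RA, with a mean under 1. Over the 3 lists, 3 of 87 genes were past 2-fold (3.45%, against 21.0% of all genes), and of the 75 with a mean FPKM of at least 20, 2 were (2.67%, against 11.6%). With equal sums 7 of the 87 were past 2-fold (8.05%, against 23.1% of all genes). Pcbp4, Rbm20, Rbm24 and Rbmx were the added rises.

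**Figure D4:**
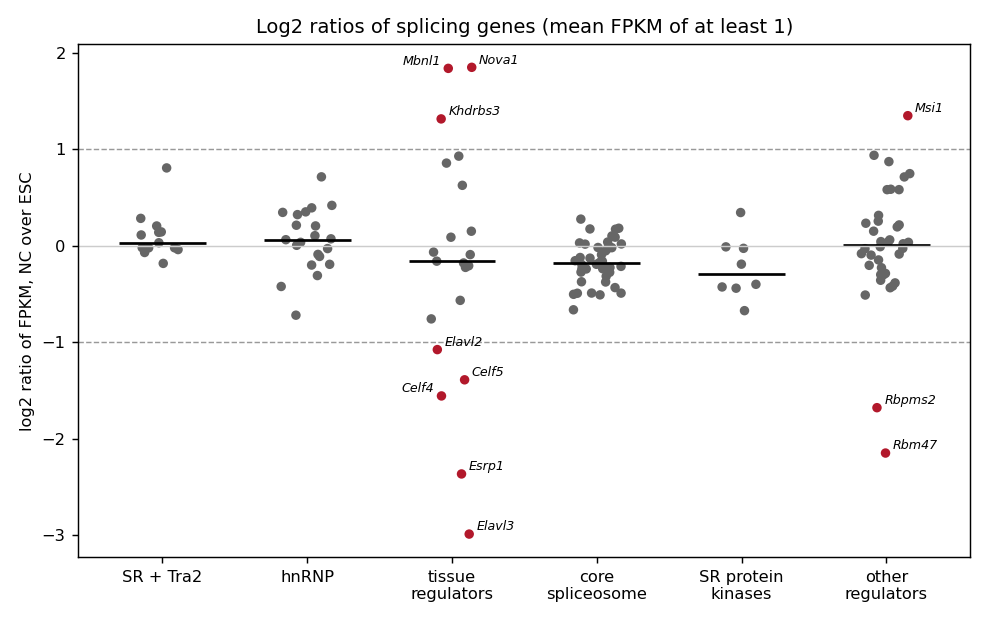
Log2 ratio of FPKM in NCs over ESCs (vertical axis) for splicing genes with a mean FPKM of at least 1, by group, with the group's median as a black line, dashed lines at 2-fold and genes past 2-fold in red with names. The 34 SR, Tra2 and hnRNP genes lie between -0.72 and 0.81, and the tissue regulators between -2.99 and 1.85.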

How the data were processed

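RNA of 3 ESC and 3 NC samples was sequenced. The authors aligned reads to mm10 with TopHat2 (2.0.8) over Bowtie2 (version 2.1.0), used Cufflinks 2.0.2 and Cuffmerge, and deposited the output of Cuffdiff, per the labels and the methods. The deposited FPKM values, 1 per gene and condition, were used. The NC heading reads FPK and was taken as FPKM. The table also holds the authors' own comparison (ratio, statistic and p-values), which were not used. Depth per sample is unknown, and without values per replicate no test was run.

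Ratios were computed without a pseudocount and called at 2-fold where the mean of both conditions was at least 1 FPKM. The members and gene lists were chosen with earlier results of these data known. Of the lists, Sf3b14 and Rod1 were not matched, and Ptbp3 was counted as a member. Named were all members past 2-fold, all members of the Ptbp, Mbnl, Rbfox, Celf, Elavl, Nova, Esrp and STAR families, the highest and the most changed of each other family, and the genes past 2-fold, the most changed or the highest of the other lists. Other genes (Srsf3, Srsf5, Srsf7, Srsf1, other hnRNPs, Srpk1 and Srrm4, the genes named for equal sums, and the shown promoters) were chosen after their values were seen. Srsf4 was named for its overlap with an antisense gene.

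Positions and shared words of 50 bases came from GENCODE M21 on GRCm38, the build that mm10 also denotes, and promoters from RefSeq on GRCm38.p6. All 61 members matched a RefSeq symbol, 2 through an older one. The calling step was run on simulated data with 200 planted genes set well past 2-fold. Such a run checks the computation and not the precision of the FPKM values. Python 3.11.15, numpy 2.4.6, pandas 2.3.3 and matplotlib 3.10.9 were used. Alternatives covered pseudocounts, filters, fold limits, scaling and, added after the values were seen, Khdrbs3 among the neuronal members.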

Additional observations from a re-analysis of the deposited data

How the results depend on the processing

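The members gave 8 calls past 2-fold, 3 higher and 5 lower. These counts stayed within 1.5 times with pseudocounts of 0.1 and 1, without a filter and after centring on the median. With a mean FPKM of at least 5, 4 members were called, 1 higher and 3 lower, and of the other splicing genes 1 was lower in place of 2. With a mean FPKM of at least 20, a limit chosen after seeing the data, 1 member was called, 1 higher and 0 lower, and 1 other splicing gene was lower. That was 2.56% of the members, where 11.6% of all genes of that level were called. With a fold limit of 1.5, 15 members (27.3%) were called, 8 of them higher. Of the other splicing genes 10 (11.5%) were, 6 higher and 4 lower, and of all genes 38.1%. With a fold limit of 3, 4 members were called, 2 of them lower, and 0 other splicing genes were higher. With equal sums, 7 members were higher, 5 other splicing genes were higher and 7 were called in all, and the median log2 ratio of the members was 0.30, since this setting adds 0.29 to each ratio. Stricter filters and limits call fewer genes by construction. Of the 8 called members, 7 stayed past 2-fold in every setting that kept them, and Elavl2 was within the limit with a pseudocount of 1 (-0.98) and with equal sums (-0.78). The sign of a called ratio could not turn in these settings. Pseudocounts keep the sign, and the added shifts of 0.29 and 0.04 are smaller than any called ratio. No paired analysis was possible because the table holds 1 value per condition, and leaving out a replicate was not run for the same reason. Depth per sample is unknown, so the precision of the low values (Mbnl1, Nova1, Elavl3, Celf4) is unknown too.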

Other observations

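Factors that act on spliced mRNA were looked at in lists added after the values of the members had been seen. Of 15 genes of nonsense-mediated decay and the exon junction complex, which clear mRNAs with premature stop codons such as those from the poison exons of SR genes, all had a mean FPKM of at least 1 and none was past 2-fold. Upf1, the central helicase of this decay, had 48.5 FPKM with LIF and 28.0 with RA, 1.73-fold lower. Upf2 had 16.5 FPKM in ESCs against 9.73 in NCs, 1.70-fold lower. The core exon junction helicase Eif4a3 had 125 FPKM with LIF and 152 with RA. The median log2 ratio of the list was -0.33, and -0.03 with equal sums. Over all genes with a mean FPKM of at least 1 these medians were -0.04 and 0.26. For the 8 listed genes with a mean FPKM of at least 20 the median was -0.16, the same as over all genes of that level.

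Of 14 genes of the minor spliceosome and the Lsm ring, 13 were matched (Lsm8 was not), and none was past 2-fold. The largest difference on the deposited scale was that of Snrnp48, a protein of the minor spliceosome, with 36.6 FPKM in ESCs against 22.0 in NCs, a log2 ratio of -0.73. With equal sums it was -0.44, and the largest was that of Zcrb1, 0.65. The median log2 ratio was -0.17, against -0.04 over all genes with a mean FPKM of at least 1. With equal sums these medians were 0.12 and 0.26. Of the 9 listed genes with a mean FPKM of at least 20, 8 were lower in NCs on the deposited scale, and with equal sums 4 were higher. The median of the 9 was -0.32, against -0.16 over all genes of that level, and with equal sums -0.02 against 0.14.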
